A study of Caenorhabditis elegans with 2 samples.

Results

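The genes of 6 stress response transcription factors, hif-1, hsf-1, daf-16, skn-1, xbp-1 and atfs-1, were examined for binding of the Hox protein MAB-5 in Caenorhabditis elegans larvae. The genes were chosen by name from the Ensembl annotation of WBcel235, out of 19973 nuclear protein-coding genes, and not by their measured values. Earlier results of these data were, however, known when the choice was made. Chromatin was immunoprecipitated from whole L2 larvae of strain OP27, of mixed sex, which carry the unc-119(ed3) mutation on chromosome III and the integrated array wgIs27 with an eGFP-mab-5 insertion. The labels list mab-5 as the antibody. A single group was sampled, with 2 biological replicates, and no untagged or untreated group was analysed here, so nothing was compared between conditions and no test was possible. Whole animals were used, so a peak cannot be assigned to a cell type. MAB-5 acts in posterior cells, and binding in few cells and weak binding in many cannot be told apart.

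Each of the 6 factors is a transcriptional end point of a stress pathway. HIF-1 drives the response to low oxygen and is destroyed in normal air through hydroxylation by EGL-9 and ubiquitination by VHL-1. HSF-1 induces heat shock proteins, DAF-16 is the FOXO factor held in the cytoplasm by insulin signalling, and SKN-1 is the Nrf-like factor that induces detoxification genes and also specifies early endoderm. XBP-1 is made after its mRNA is spliced by IRE-1 during endoplasmic reticulum stress. ATFS-1 enters the nucleus when its import into mitochondria fails. The Hox protein MAB-5 acts in the posterior body and is best known for directing the migration of the left Q neuroblast and the fates of posterior epidermis, male rays and the M lineage.

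Peaks from the authors' optimal list, the outcome of the irreproducible discovery rate (IDR) procedure, were found at 5 of the 6 genes, and hsf-1 had none. The rule counted a summit in the gene or within 10 kb of its start. Under it, 32.6% of all protein-coding genes had a peak. The 5 genes held 9 of the 2197 IDR peaks: 3 for xbp-1, 2 each for hif-1 and atfs-1, and 1 each for daf-16 and skn-1. Among protein-coding genes, the nearest start, or the sole gene around the summit, was the factor gene itself for only 4 of the 9 peaks. These 4 own peaks belonged to hif-1, daf-16, xbp-1 and atfs-1, against 9.91% of all genes with an own peak. The other 5 peaks lay closer to the start of a neighbouring gene. So did the daf-16 own peak, with the gpx-8 start 12981 bp away and the daf-16 start 19411 bp away. It counts as own because daf-16 is the sole protein-coding gene around its summit. In the promoter window, which spans 2000 bp before and 500 bp after the gene start, hif-1, xbp-1 and atfs-1 had a peak, and 9.59% of all genes did. With 6 genes, these counts are a description.

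The sequences under 4 of the peaks are shown because they carry the positions described below. They are the 3 promoter peaks of hif-1, xbp-1 and atfs-1 and the 1 peak in the set with TGATNNAT, a composite site for Hox proteins and their PBC partners. All are ce11 sequence of the plus strand from the RefSeq copy of the assembly, 5′ to 3′. For hif-1 the whole peak is given, and for the others the bases within 100 bp of the summit that lie outside annotated exons. Capitals mark the motifs searched: CTCTCT (or AGAGAG, its other strand) in all 4, TGACGTCA in xbp-1, ACGTG (or CACGT) in atfs-1 and TGATNNAT in skn-1.
hif-1, chrV:20778409-20778558: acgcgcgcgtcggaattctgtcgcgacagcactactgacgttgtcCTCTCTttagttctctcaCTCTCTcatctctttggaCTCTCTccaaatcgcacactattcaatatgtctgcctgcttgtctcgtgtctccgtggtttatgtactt
xbp-1, chrIII:4193705-4193808: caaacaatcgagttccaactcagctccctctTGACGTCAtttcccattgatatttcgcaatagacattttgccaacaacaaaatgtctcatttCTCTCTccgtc
atfs-1, chrV:14193497-14193662: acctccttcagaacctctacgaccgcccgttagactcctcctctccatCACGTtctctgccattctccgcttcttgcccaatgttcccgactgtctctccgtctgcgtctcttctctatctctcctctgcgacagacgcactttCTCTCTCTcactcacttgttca
skn-1, chrIV:5665574-5665774: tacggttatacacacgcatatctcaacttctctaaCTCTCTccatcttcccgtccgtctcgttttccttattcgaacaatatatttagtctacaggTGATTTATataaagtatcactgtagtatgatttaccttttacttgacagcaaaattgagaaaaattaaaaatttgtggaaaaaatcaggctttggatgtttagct

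Each peak carries the authors' signal score, of unstated scale, which was used to rank peaks within a list. A signal ratio between the replicates is given only for the xbp-1 promoter peak, beside the median ratio over the matched IDR peaks. The pooled list and each replicate's own list hold 30000 peaks each, and the IDR list consists of the 2197 pooled peaks of highest signal. A place in the IDR list therefore does not mean a high rank in each replicate. The lowest signal in the IDR list was 29.6. The peak of the same rank, 2197, had a signal of 12.8 in replicate 1 and 18.5 in replicate 2, so raw signals differ in scale between the lists. Since an IDR peak has only 1 pooled signal, its ranks in the replicates are given in place of an SD. The lists give no reads, and depth is therefore unknown.

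**Figure D1:**
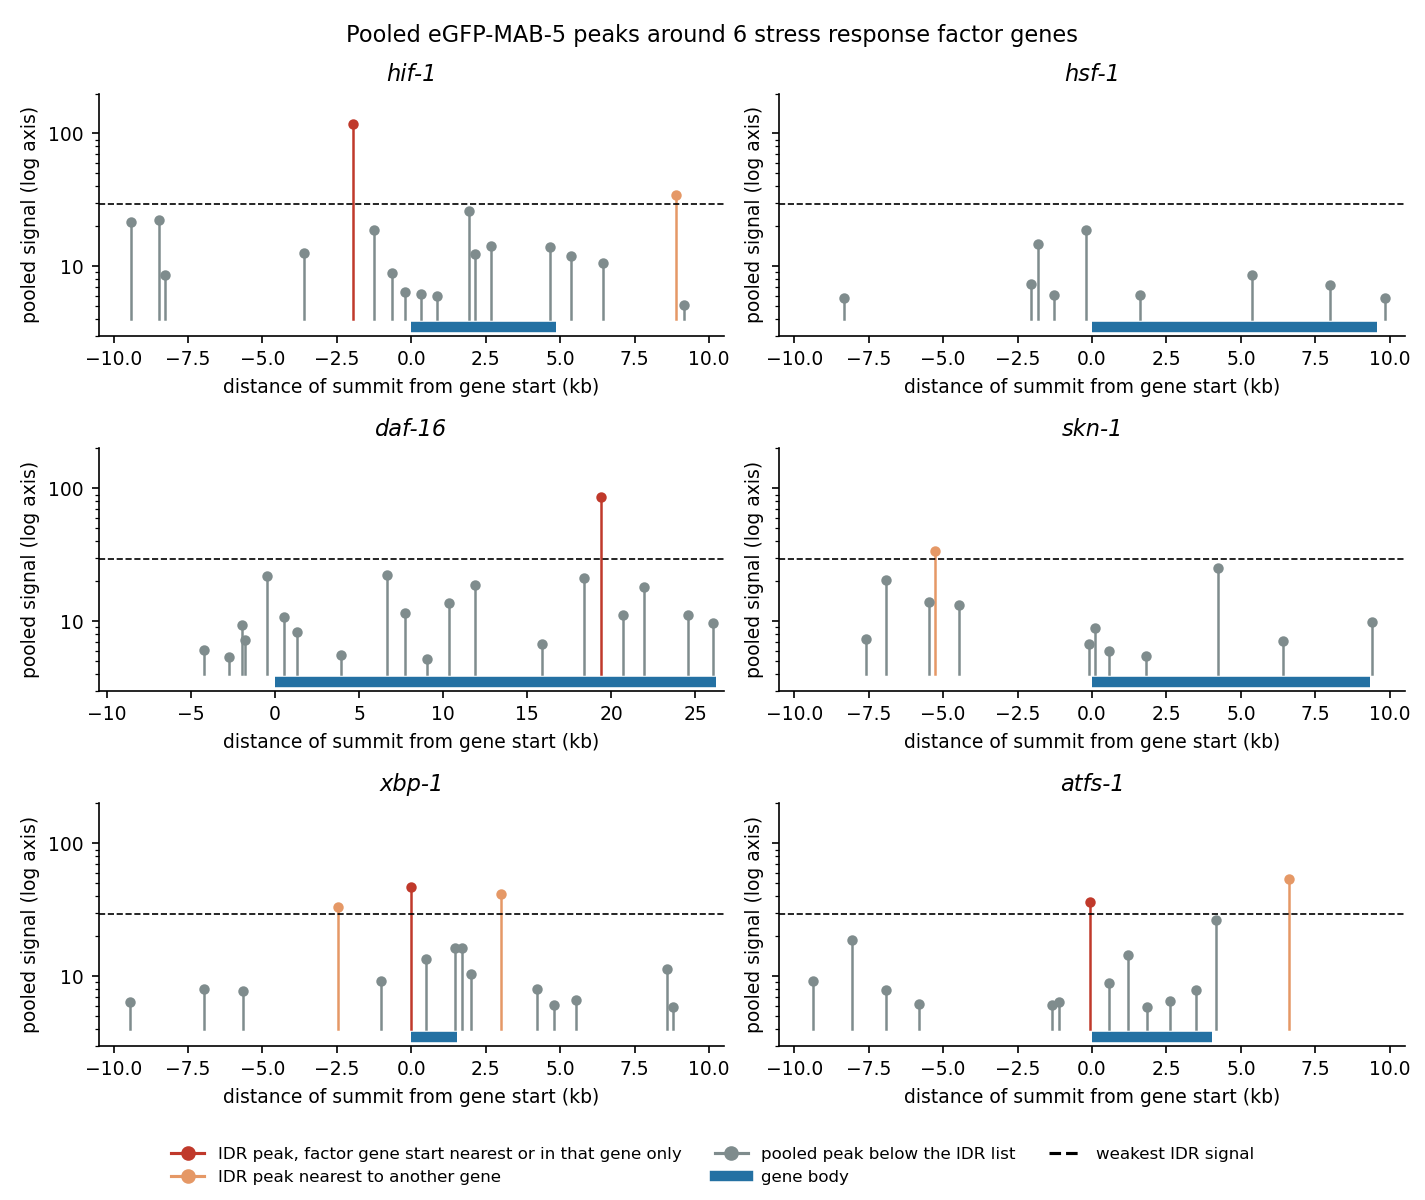
Pooled signal (log axis) of every peak in the pooled list around each factor gene, plotted by the distance of its summit from the gene start in kb, with the gene body as a bar and upstream to the left. Only hsf-1 has no peak above the dashed line at 29.6, the lowest IDR signal, and the highest stem is the hif-1 peak at 118.7.

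The hypoxia factor gene hif-1 had the strongest peak of the set. The gene (WBGene00001851, chrV:20780407-20785260, plus strand) had its peak at chrV:20778409-20778558, between protein-coding genes and 1953 bp upstream of the gene start. The pooled signal was 118.7, rank 129 of all 30000 peaks. The peak had a signal of 40.3 in replicate 1 (rank 190) and of 74.7 in replicate 2 (rank 120), so it stood near the top of both lists. The replicate summits lay 10 and 0 bp from the pooled one. Only 4.83% of the 2174 nuclear IDR peaks were stronger. The hif-1 start was the nearest, and the next, that of F38A6.4 on the opposite strand, was 3085 bp away. The summit lies just inside the 2000 bp edge of the promoter window, so a narrower window would miss it.

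The 3 nuclear IDR peaks most like the hif-1 peak, by the sum of absolute log2 rank differences over the pooled and both replicate lists, lay near fbxb-85 (ranks 127, 176 and 118, sum 0.157), Y75B8A.23 (ranks 128, 174 and 123, sum 0.174) and egl-27 (ranks 134, 181 and 113, sum 0.212). The first is named as an F-box gene, and egl-27 encodes an MTA-like chromatin factor.

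The second IDR peak counted for hif-1 lay 8897 bp downstream of its start, at chrV:20789132-20789475, in an intron of Y44A6D.1. It was 198 bp upstream of the start of tpan-1, the nearest gene, and had a signal of 34.6 (rank 1712; ranks 979 and 3668 in replicates 1 and 2). The hif-1 gene itself held no IDR peak. Its strongest internal peak, in an intron 1940 bp from the start, had a pooled signal of 26.1 (rank 2671) and ranked 10168 in replicate 1 and 1436 in replicate 2.

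The insulin pathway factor gene daf-16 (WBGene00000912, chrI:10750498-10776703, plus strand) had the next strongest peak, deep inside the gene. It lay in an intron at chrI:10769905-10769997, 19411 bp downstream of the gene start, with a pooled signal of 86.9 (rank 267). Its signal was 48.25 in replicate 1 (rank 133) and 30.7 in replicate 2 (rank 860). The peak was within the first 2197 of both lists but far stronger in the first: 98.3% of the 2152 nuclear IDR peaks matched in both lists leaned at least as far toward replicate 2.

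The position of this peak depends on which daf-16 transcript is taken. The gene has 11 annotated transcripts with 7 different starts, spread over 10750498 to 10772999. The peak lay 1599 bp upstream of the start of R13H8.1a, 6806 bp downstream of that of R13H8.1b and 18949 bp downstream of that of R13H8.1d. A non-coding gene, R13H8.5, starts 301 bp from the summit. At 93 bp the peak was narrow, and only 1.89% of nuclear IDR peaks were narrower. At the start of the longest transcripts daf-16 had no IDR peak. The pooled peak there, 488 bp upstream, had a signal of 22.0 (rank 3410) and ranked 2022 in replicate 2 with no match in replicate 1.

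The gene of the endoplasmic reticulum stress factor, xbp-1 (WBGene00006959, chrIII:4193809-4195358, plus strand), had a peak directly over its start, and the replicates differed most here. The peak at chrIII:4193633-4193976 had its summit 4 bp upstream of the start, with a pooled signal of 46.8 (rank 987). In replicate 2 its signal was 42.8 (rank 424). In replicate 1 the matching peak had a signal of 4.74 (rank 11614), close to that list's median of 4.002. The ratio of replicate 2 to replicate 1 signal was 9.03, against a median of 1.51 over the 2152 matched nuclear IDR peaks, the middle 80% of which ran from 0.837 to 2.81. By the ratio of ranks, 5 of the 2152 peaks, this one included, leaned as far toward replicate 2. Taken alone, only replicate 2 had this peak among its first 2197.

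Both other IDR peaks near xbp-1 sat at its neighbours. The first lay in an intron of dnj-16, named as a DnaJ-domain gene, 217 bp downstream of the start of that gene and 2451 bp upstream of xbp-1 (chrIII:4191186-4191529, signal 33.1, rank 1849; ranks 9022 and 2931 in replicates 1 and 2). It was outside the first 2197 in both replicates. The second lay 468 bp upstream of asd-1, which encodes a Fox-1 family splicing regulator (chrIII:4196645-4196988, signal 41.6, rank 1236; ranks 2370 and 776). All 3 peaks ranked higher in replicate 2. With 3 peaks in the window, xbp-1 was among the 2.06% of genes that had as many or more.

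For the mitochondrial stress factor gene atfs-1 (WBGene00013878, chrV:14193663-14197700, plus strand), the promoter peak was weak but similar in both replicates. At chrV:14193425-14193768, with the summit 66 bp upstream of the start, it had a pooled signal of 36.0 (rank 1612). Its signal was 13.2 in replicate 1 (rank 2081) and 20.8 in replicate 2 (rank 1787). Of all nuclear IDR peaks 73.0% were stronger. The start of 3 of its 7 transcripts lies 849 bp downstream of the summit.

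A stronger peak lay 6625 bp downstream of the atfs-1 start and beyond the gene's end, at chrV:14200116-14200459. Its signal was 53.8 (rank 741), with ranks of 2387 and 399 in replicates 1 and 2. The nearest start of a gene, that of T16A9.3, was 5226 bp away. The start of the shortest atfs-1 transcript, ZC376.7d, was closer, at 3943 bp, so the assignment of this peak depends on whether gene or transcript starts are used. Between these peaks lay another just past the end of atfs-1 that missed the IDR list (signal 26.7, rank 2591; ranks 6887 and 1965).

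The oxidative stress factor gene skn-1 (WBGene00004804, chrIV:5651039-5660384, minus strand) had no IDR peak in its body or promoter. The 1 IDR peak counted for it, at chrIV:5665502-5665845, lay 5290 bp upstream of its start and 1249 bp upstream of bec-1, which encodes the autophagy protein beclin. Its pooled signal was 33.7 (rank 1798). It had a signal of 16.3 in replicate 1 (rank 1465). In replicate 2 a pair of peaks overlapped it. The stronger, used as the match, had a signal of 11.8 (rank 4411) and a summit 199 bp away. The weaker, with its summit 5260 bp upstream of skn-1 and so close to the pooled summit, had a signal of 10.4 (rank 5417). Within skn-1 the strongest peak missed the list. It lay in an intron 4235 bp from the start (signal 25.04, rank 2841; ranks 3222 and 4013). At the skn-1 start the strongest pooled peak, with its summit 101 bp downstream, had a signal of 8.95, near the list median of 8.33.

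The heat shock factor gene hsf-1 (WBGene00002004, chrI:11953507-11963085, minus strand) was the only one of the 6 with no IDR peak in the 10 kb or the 20 kb window. It had a weaker promoter peak that both replicates shared. At chrI:11963102-11963445, 189 bp upstream of the start, the pooled signal was 18.8 (rank 4248). The signal was 8.71 in replicate 1 (rank 4155) and 12.6 in replicate 2 (rank 3979), and the 3 ranks are close. A second peak, 1827 bp upstream, had a pooled signal of 14.6 (rank 6076; ranks 4992 and 6182). Of the 9 pooled peaks around hsf-1, 3 had a match in both replicates, and the strongest of the others had a signal of 8.65.

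**Figure D2:**
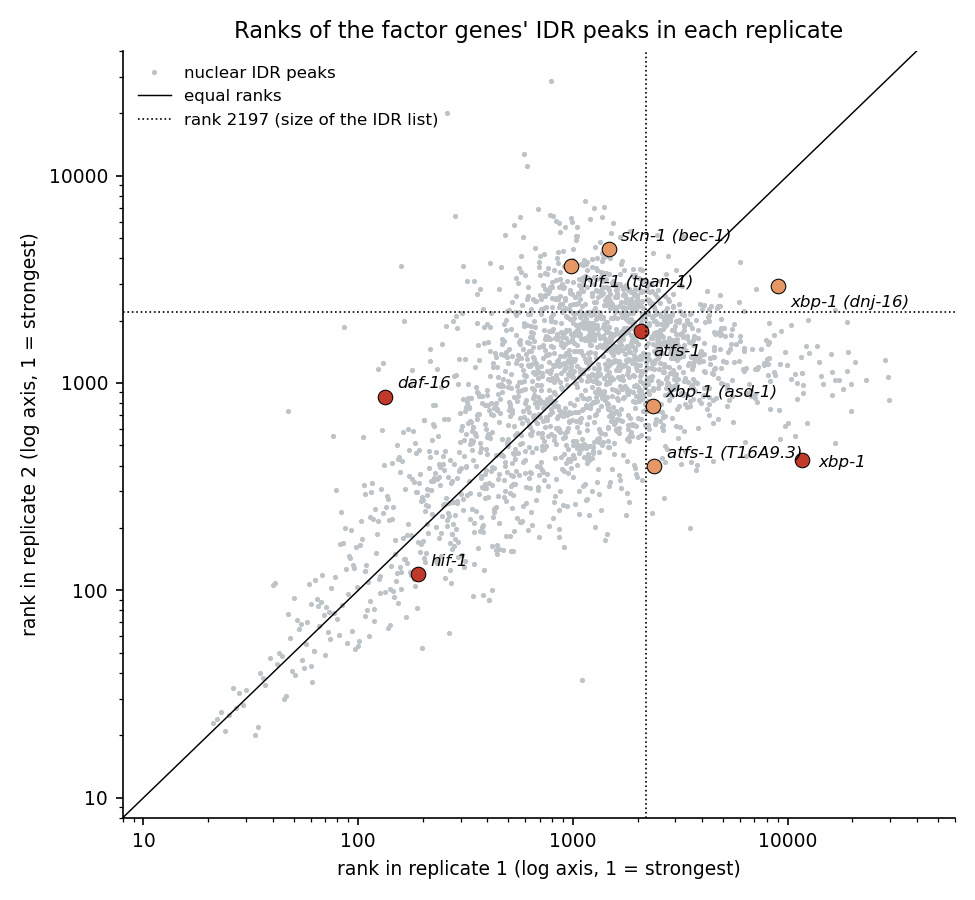
Rank of each nuclear IDR peak in replicate 1 (x axis) and replicate 2 (y axis), both on log axes with 1 as the strongest. The 9 peaks of the factor genes are in colour and named by the factor gene. Peaks that are not own peaks also carry the nearest gene in brackets. The daf-16 peak has no bracket because it lies inside daf-16 and no other protein-coding gene, although the start of gpx-8 is nearer. The hif-1 peak lies near the line of equal ranks, whereas the xbp-1 promoter peak (ranks 11614 and 424) and the daf-16 peak (ranks 133 and 860) lie far to either side of it.

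Across the set, replicate ranks set how far the order of the genes can be read. By the strongest pooled peak in the window the order was hif-1, daf-16, atfs-1, xbp-1, skn-1 and hsf-1. In replicate 1 it was daf-16 (rank 133), hif-1 (190), skn-1 (1465), atfs-1 (2081), xbp-1 (2309, a peak 2047 bp downstream of its start) and hsf-1 (4155). In replicate 2 it was hif-1 (120), atfs-1 (399), xbp-1 (424), daf-16 (860), hsf-1 (3979) and skn-1 (4013, a peak in its intron). The hif-1 gene was first or second in both, and hsf-1 last or next to last. The middle genes changed places, so their order is not resolved by these replicates. Among the 9 IDR peaks, 3 were in the top 2197 of each replicate, namely the hif-1, daf-16 and atfs-1 own peaks, 5 in 1 replicate only and 1 in neither. Of all nuclear IDR peaks, 63.8% were in the top 2197 of each replicate.

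Each replicate taken alone gave peaks at 4 of the 6 genes. With the 2197 strongest peaks of replicate 1, hif-1, daf-16, skn-1 and atfs-1 had a peak and xbp-1 had none, against 31.0% of all genes. With those of replicate 2, hif-1, daf-16, xbp-1 and atfs-1 did and skn-1 did not, against 31.6%. The hsf-1 gene had none in either.

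The strongest peak of each gene was also set beside that of all 19973 protein-coding genes in their own windows. For hif-1, 2.16% of genes had a stronger peak in the pooled list, 3.32% in replicate 1 and 2.04% in replicate 2. For hsf-1 the shares were 48.17%, 46.8% and 46.3%, close to the middle of all genes. For daf-16 they were 4.98%, 2.29% and 15.3%, but its window of 36.2 kb is longer than the 20.001 kb of the others. In the promoter window alone, 0.606% of genes had a stronger pooled peak than hif-1, 4.90% than xbp-1, 7.33% than atfs-1, 13.5% than daf-16, 15.9% than hsf-1 and 32.4% than skn-1. The replicates differed here for xbp-1, with 24.3% of genes stronger in replicate 1 and 2.17% in replicate 2. They also differed for daf-16, with 21.7% and 8.74%, for skn-1, with 24.5% and 42.4%, and for hif-1, with 0.961% and 0.561%. For atfs-1 the shares were 8.87% and 7.85%, and for hsf-1 14.8% and 14.7%.

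**Figure D3:**
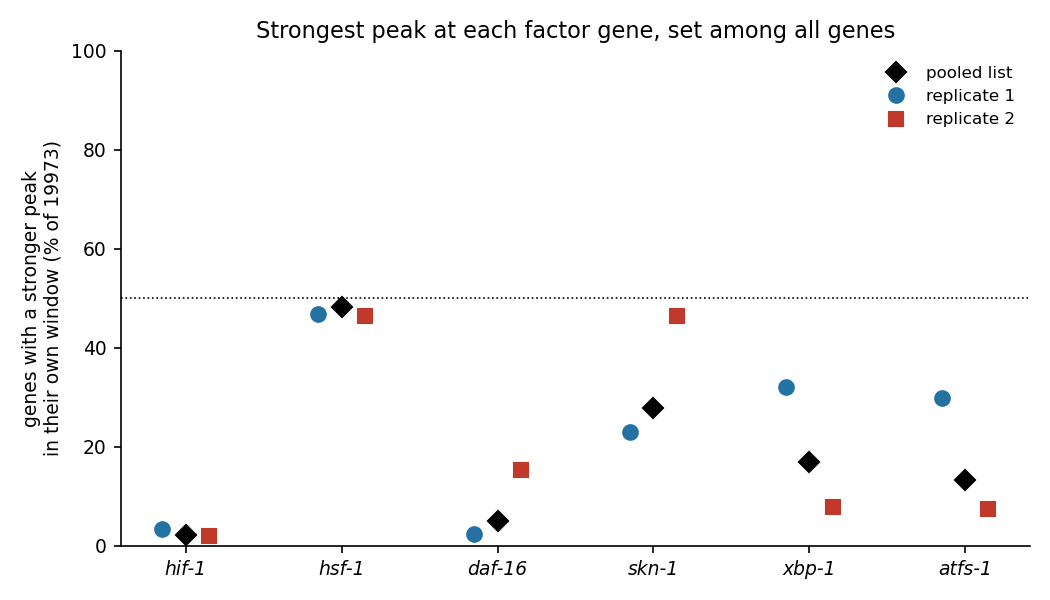
Share of 19973 protein-coding genes whose own window held a stronger peak than that of each factor gene, in the pooled list (diamonds), replicate 1 (circles) and replicate 2 (squares). Low values mean a strong peak: the 3 hif-1 values lie between 2.04% and 3.32%, and the dotted line marks 50%.

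The loci also differed in how many peaks of the pooled list they held. The 6 windows had 89 such peaks, 80 of them outside the IDR list. The density of all pooled peaks, IDR peaks included, was 9.0 per 10 kb around hif-1, 8.0 around xbp-1, 7.0 around atfs-1, 6.0 around skn-1, 5.52 around daf-16 and 4.50 around hsf-1, against 2.99 over the nuclear genome. The genome value is not restricted to windows around genes. A density over the windows of all protein-coding genes is not given here, so these loci cannot be called dense for genes. Of the 89 peaks 53 overlapped a peak in both replicates. They were 16 of 18 around hif-1, 12 of 16 around xbp-1 and 7 of 12 around skn-1. Around daf-16 they were 10 of 20, around atfs-1 5 of 14 and around hsf-1 3 of 9. The same share over all pooled peaks is not given here, so these counts cannot be called high or low. Neighbouring pooled peaks can share 1 replicate peak in this count.

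The 9 summits were set beside all 2174 nuclear IDR summits for sequence motifs within 100 bp, on both strands. The Hox-PBC composite TGATNNAT was found at 1 of 9, the peak between skn-1 and bec-1, 4 bp from the summit, and at 21.8% of all summits. None of the 4 own peaks held it. The homeodomain core TAATTA (5.01% of all summits), the DAF-16 element GTAAACA (2.67%) and the heat shock element core GAANNTTC (8.0%) were found at 0 of 9. The hypoxia response core ACGTG was found at 3 of 9, both atfs-1 peaks and the xbp-1 promoter peak, and at 22.1% of all summits. In xbp-1 it lay just inside the first exon, beyond the bases shown. The hif-1 window did not hold it.

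A pair of further motifs was searched after the sequences had been read. CTCTCT, which reads as GAGA repeats on the other strand, was found at 6 of 9 summits and at 37.6% of all summits. All 4 own peaks held it, hif-1 at 4 positions, 1 of them outside the peak and 1 at the summit. The daf-16 window held it at 20 positions, but all except 1 of them lay in CT repeats outside the called peak. The effect of such repeats on read mapping was not tested. The palindrome TGACGTCA, known as the cAMP response element and bound by many basic leucine zipper proteins, the class to which XBP-1 belongs, was found in the xbp-1 promoter window and at 1.33% of all summits. The GC content of the 201 bp windows was 33.3% at the skn-1 peak and 50.7% at the daf-16 peak, the lowest and the highest of the 9, with a median of 43.3% over all summits.

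Genes that act with the 6 factors were examined as 7 lists of 87 names, of which 86 matched a protein-coding gene and hsf-2 did not. In the promoter window 23 of the 86 genes had an IDR peak, against the 9.59% of all genes. For 15 of the 23, the gene itself had the start nearest to the peak. Within the gene or 10 kb of the start, 49 of the 86 did, against 32.6%.

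Of the 10 hypoxia genes, 3 had a promoter peak. The prolyl hydroxylase gene egl-9, which targets HIF-1 for destruction, had one 1759 bp upstream (signal 90.1, rank 243; ranks 210 and 289 in replicates 1 and 2). The HIF-1 partner gene aha-1 (signal 49.6) and the elongin C gene elc-1 (signal 40.2) had theirs closer to a neighbour, C25A1.15 and Y82E9BR.3. The vhl-1 gene had none in the promoter window.

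Of the 5 HSF-1 regulator genes tested, none had a promoter peak, and hsb-1, hsp-90 and sir-2.1 had one within 10 kb. Of the 18 insulin pathway genes, 4 had a promoter peak. They were the 14-3-3 genes ftt-2 (signal 56.3) and par-5 (34.4, nearest to M117.3), the DAF-16 cofactor gene smk-1 (79.7, nearest to vps-60) and the phosphatase subunit gene pptr-1 (29.9). The par-5 peak ranked 3270 and 1126 in replicates 1 and 2, and the pptr-1 peak 1176 and 3213. The receptor gene daf-2 and the kinase genes age-1, akt-1 and akt-2 had none in the promoter window. Of the 12 SKN-1 regulators, wdr-23 (121 bp upstream, signal 31.5) and cul-4 (204 bp upstream, signal 37.1) had a promoter peak. The wdr-23 gene encodes the adaptor that marks SKN-1 for degradation, and cul-4 its partner cullin. The wdr-23 peak ranked 2952 and 1796 in replicates 1 and 2.

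Genes of the endoplasmic reticulum response had a promoter peak at 5 of 13, each with its own start nearest. The strongest was at cdc-48.1, which encodes an ATPase of protein degradation (167 bp upstream, signal 273, rank 29; ranks 29 and 28). The others were the BiP chaperone gene hsp-3 (signal 117), the calreticulin gene crt-1 (93.4), the stress sensor gene atf-6 (77.1) and ire-1, whose product splices xbp-1 mRNA (1355 bp upstream, signal 36.5). The ire-1 peak ranked 1102 and 2344 in replicates 1 and 2. The kinase gene pek-1 had none in the promoter window. Genes of the mitochondrial response had one at 5 of 12, of which only ubl-5 (signal 32.6) had its own start nearest. The others were hsp-60 (signal 202), jmjd-1.2 (72.1), hsp-6 (39.9) and clpp-1 (31.5). In replicates 1 and 2 the ubl-5 peak ranked 2460 and 5157, outside the first 2197 of both, and the clpp-1 peak 2715 and 2011. Of 16 other stress factor genes, 4 had a promoter peak, crh-1 (signal 64.9), mdl-1 (57.2), cebp-1 (50.4) and nhr-49 (42.9). The lists were chosen by hand and no list was tested, so nothing particular to a list is drawn from these counts.

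**Figure D4:**
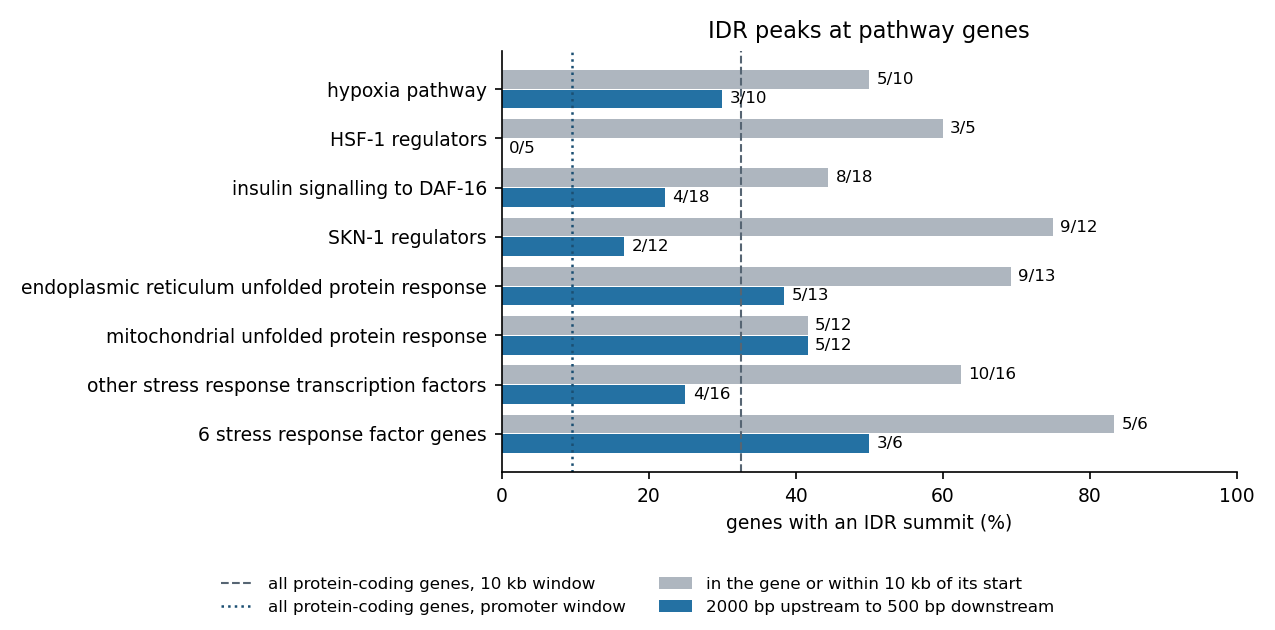
Percentage of genes in each list with an IDR summit in the gene or within 10 kb of its start (grey bars) or in the promoter window (blue bars), with counts beside the bars. The dashed and dotted lines give the same shares over all protein-coding genes, 32.6% and 9.59%; the HSF-1 regulators alone have 0 promoter peaks (of 5).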

How the data were processed

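The authors deposited peak lists on ce11 and ce10, per the file headers and the text records of the samples. Each relaxed list was called against a control alignment, on each replicate or on both pooled, and the IDR procedure reduced them to the optimal list. Not given in the sources used here were the aligner, the peak caller and the IDR cutoff. The deposited signal score ranked peaks within a list. The deposited −log10 q-value was at its ceiling, 3.66, for all IDR peaks and was not used to rank them. Only ce11 was analysed.

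Genes came from Ensembl release 115 (WBcel235, the assembly of ce11). Analyses used Python 3.11.15 with numpy 2.4.6 and pandas 2.3.3, and window counting and matching were tested on simulated data. A peak matched the strongest peak of another list that shared 1 bp or more with it. The genes, lists and alternatives were chosen with earlier results of these data known. Named in the text were the 6 genes, the gene start nearest to each counted peak, list genes with a promoter peak and the 3 peaks most like the strongest. Genes singled out for having none were chosen after their values were seen. Alternatives changed the window, the gene start, the peak assignment, the threshold, the overlap and the replicates used.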

Additional observations from a re-analysis of the deposited data

How the results depend on the processing

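The number of the 6 genes with an IDR peak was 5. Over the other windows, transcript starts, assignment, threshold and single replicates it was 4 or 5, except in the promoter window, where it was 3. The share of all genes with a peak moved more widely, from 32.6% to 20.3% with a 5 kb window and 51.1% with a 20 kb window. That share was 33.1% with any transcript start, 18.6% with the 1098 strongest IDR peaks, 9.91% for own peaks and 9.59% in the promoter window. With replicate 1 or 2 alone it was 31% or 31.6%. The number of peaks was 9. It fell to 3 in the promoter window, to 4 when only own peaks were counted and to 4 with the 1098 strongest IDR peaks. It was 6 with a 5 kb window, 9 with a 20 kb window or with any transcript start, and 6 to 9 with either replicate left out. The single-replicate counts include peaks that overlap no IDR peak. In replicate 2 these lay 2006 bp downstream of the hif-1 start, 455 bp upstream of daf-16 and 4157 bp downstream of atfs-1. In replicate 1 such a peak lay 22047 bp downstream of the daf-16 start. All 9 peaks of the main rule overlapped a peak in both replicates, as did 2152 of the 2174 nuclear IDR peaks. At a reciprocal overlap of 50%, 7 of the 9 did, and the share over all IDR peaks at that overlap is not given here. The hif-1 and daf-16 own peaks failed the stricter overlap. At 150 and 93 bp they are too short to cover 50% of their replicate 1 matches, in a list with a median width of 336 bp. Their summits in both replicates lay within 13 bp of the pooled ones. The strongest-peak ranks of hif-1 (120 to 190) and hsf-1 (3979 to 4155) ranged least between the replicates, and the pooled list's strongest xbp-1 peak ranked 424 to 11614. For daf-16 the range was 133 to 860, for atfs-1 399 to 2387 and for skn-1 1465 to 4411. No paired analysis was possible because there is 1 group and no test. Unknown read depth, 1 pooled signal per peak and the absence of an untagged control limit every value.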

Other observations

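Among the other stress factor genes, hlh-30, which encodes the TFEB-like regulator of autophagy and lysosome genes, had 6 IDR peaks in its 20159 bp body or within 10 kb of its start, and 12 protein-coding genes (0.0601%), itself included, had as many or more. Of these peaks 5 lay in introns of hlh-30, between 6616 and 14854 bp from its start, with the strongest at a signal of 74.2 (rank 373; ranks 528 and 461 in replicates 1 and 2). The other lay 7496 bp upstream of the hlh-30 start, with cdc-73 as the nearest gene (signal 33.4, rank 1829; ranks 17310 and 1037). None of the 6 lay in the hlh-30 promoter window. The gene mdl-1, which encodes a Mad-like factor, and the 14-3-3 gene ftt-2 had 4 IDR peaks each, all with that gene's start nearest, and 82 genes (0.411%) had 4 or more. At ftt-2, 1 of the 4 had no match in replicate 1, and a pair of them matched a single peak in replicate 2. These 3 genes were singled out after their counts were seen.

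The xbp-1 promoter peak was the only nuclear IDR peak that ranked beyond 10000 in replicate 1 and within the first 500 in replicate 2, limits chosen after its ranks were seen. Ranks beyond 10000 occurred for 39 of the 2152 matched nuclear IDR peaks in replicate 1 and for 4 in replicate 2.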
